A study of Mus musculus with 18 samples.

Results

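The genes of collagen, laminin, nidogen and integrin chains, 79 of the 30142 mouse genes measured, were followed in epithelial cells of the adult lung that had been sorted by a fluorescent reporter of Wnt signalling. The genes were chosen by family name alone: the collagen alpha chains, the laminin alpha, beta and gamma chains, the integrin alpha and beta chains and the 2 nidogens, with Col17a1 left out. This gave 41 collagen genes, 10 laminin genes, 2 nidogen genes, 17 integrin alpha genes and 9 integrin beta genes, each with 1 probe set. Col6a4, Col7a1 and Itga1 share their probe sets with another gene, so these 3 genes were not analysed here.

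All mice carried the same transgene, TCF/Lef:H2B/GFP, in which TCF/Lef binding sites drive a green fluorescent protein fused to histone H2B, and all were 8 to 12 weeks old. Living (DAPI negative) EpCAM positive cells were sorted into GFPhigh, GFPlow and GFPneg cells after depletion on beads of cells with CD31 or CD45, and these are the groups Wnthigh, Wntlow and Wntnegative. The groups are therefore cells of like fluorescence and not cell types, and each array holds RNA of cells pooled from 3 to 4 animals. The labels give the tissue as distal lungs, while their protocol describes lungs taken with trachea and bronchi. Each group has 6 arrays from separate experiments, 3 in a first run (experiments 2 to 5) and 3 in a second run (experiments 7 to 9).

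Basement membranes are thin sheets under every epithelium, in which a network of laminin trimers and a network of type IV collagen trimers are joined by nidogens and perlecan. Cells hold on to laminin and collagen through integrins, receptors made of an alpha and a beta chain, of which the alpha chain largely sets the ligand. In the lung the thin alveolar wall shares a basement membrane with its capillaries, while airway epithelium is anchored through the integrin pair alpha 6 and beta 4 to laminin chains that it makes itself.

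Values are log2 values as deposited, and every difference is a log2 difference on that scale, with its standard error (SE) from a limma fit of all 18 arrays with the group and the run as terms. A gene is called where its p-value, adjusted by Benjamini-Hochberg over all 30142 genes of the comparison, is under 0.05. Probe sets differ in brightness for reasons of their own, so no gene's level is compared with another gene's. A background limit was set for each array as the 95th percentile of 1377 probe sets of olfactory and vomeronasal receptor genes, and lay at 4.63 to 4.89 in the first run and at 3.67 to 4.00 in the second. Array medians were 4.55 to 4.68 and 3.50 to 3.65, so levels are set side by side only within a run.

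The sorted cells had the genes of epithelium, with all 5 epithelial markers above background in every group. Of other lineages, 7 of 10 endothelial markers (Pecam1, Cdh5, Cldn5, Tie1, Emcn, Eng and Vwf), 7 of 9 measured leukocyte markers (Ptprc among them) and 6 of 9 measured fibroblast markers were above background on no array. This held for only 2 of 6 smooth muscle, 1 of 5 mesothelial, 1 of 8 basal and 1 of 3 measured platelet markers. Of these 3 platelet markers 2 were called lower in Wnthigh and in Wntlow than in Wntnegative cells, down to −3.32 and −2.34. The shares of all genes called lower there were 24.6% and 13.2%. The epithelial makeup differed between the groups. All 10 ciliated markers were higher in Wnthigh than in Wntnegative cells, with a median difference of 8.93, all 9 measured alveolar type II markers were lower, with a median of −5.81, and 9 of 10 alveolar type I markers were lower. The airway secretory markers were highest in Wntlow cells: all 7 goblet markers were higher than in Wntnegative cells (median 10.38) and higher than in Wnthigh cells (median −4.01 for Wnthigh minus Wntlow), and of 8 club markers 7 were higher than in Wntnegative cells (median 4.33) and 5 higher than in Wnthigh cells. In a mixture of cells, fewer cells of a type and less RNA per cell cannot be told apart. The Wntlow array of experiment 4 stood apart from the other Wntlow arrays of its run, with a mean of 16.71 over the type II markers against 14.70 and 15.36, and of 9.40 over the ciliated markers against 13.23 and 12.08. The Wnthigh array of experiment 4 likewise had a mean of 15.35 over the type II markers against 10.91 and 13.22. Calls that change without either array are given with the gene or in the closing section.

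Of the 79 genes, 35 (44.3%) were above background on all 6 arrays of at least 1 group, against 50.6% of all genes, and 33 were above background on no array. All 6 type IV collagens, all 3 laminin-binding integrin alpha chains, all 3 laminin beta chains and 6 of 9 integrin beta chains were above background in at least 1 group. The fibrillar collagens of connective tissue had 1 of 11 genes above it, and neither nidogen was. In Wnthigh against Wntnegative cells 10 genes were called higher and 20 lower, and the shares of all genes were 15.7% and 24.6%. In Wntlow against Wntnegative cells 9 were higher and 16 lower, where the shares were 12.3% and 13.2%. In Wnthigh against Wntlow cells 10 were higher and 9 lower, where the shares were 11.4% and 16.4%. Of the genes called in the first comparison 33.3% were higher, and 47.2% with each array centred on its median or with quantile normalization, which each called 17 higher; the 7 members added had differences of at most 0.348 and 0.361 in size. In the second comparison 36.0% of the called genes were higher, 46.2% with centred arrays and 39.1% with quantile normalization.

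Either way, 30, 25 and 19 of the 79 genes were called in the 3 comparisons, where the shares of all genes were 40.3%, 25.5% and 27.9%. Groups that did not overlap in either run gave 9 genes higher and 19 lower in the first comparison, where the shares of all genes were 12.9% and 17.8%. They gave 7 and 10 in the second, where the shares were 8.98% and 6.57%, and 8 and 7 in the third, where they were 8.04% and 10.3%.

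Differences of at least 1 in size were called for 6 genes higher and 14 lower in Wnthigh against Wntnegative cells, with 6.62% and 7.28% of all genes. The counts were 4 and 10 in Wntlow against Wntnegative cells, with 4.32% and 3.32% of all genes, and 5 and 5 in Wnthigh against Wntlow cells, with 4.27% and 4.83%. Either way these shares of all genes were 13.9%, 7.65% and 9.1%. The medians over the 79 genes were −0.03, −0.01 and −0.02, beside −0.05, −0.03 and −0.01 over all genes. Itgb4 was the highest and Itga9 the lowest of the 79 genes in the comparisons with Wntnegative cells. A fit without a term for the run, which leaves the offset between runs in the residual spread, called 5 genes higher and 8 lower in the first comparison, 3 and 1 in the second, and 4 and 2 in the third, and called 9.37%, 3.52% and 4.48% of all genes in either direction. All 3 comparisons share arrays, so they are given side by side and not as support for each other.

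**Figure D1:**
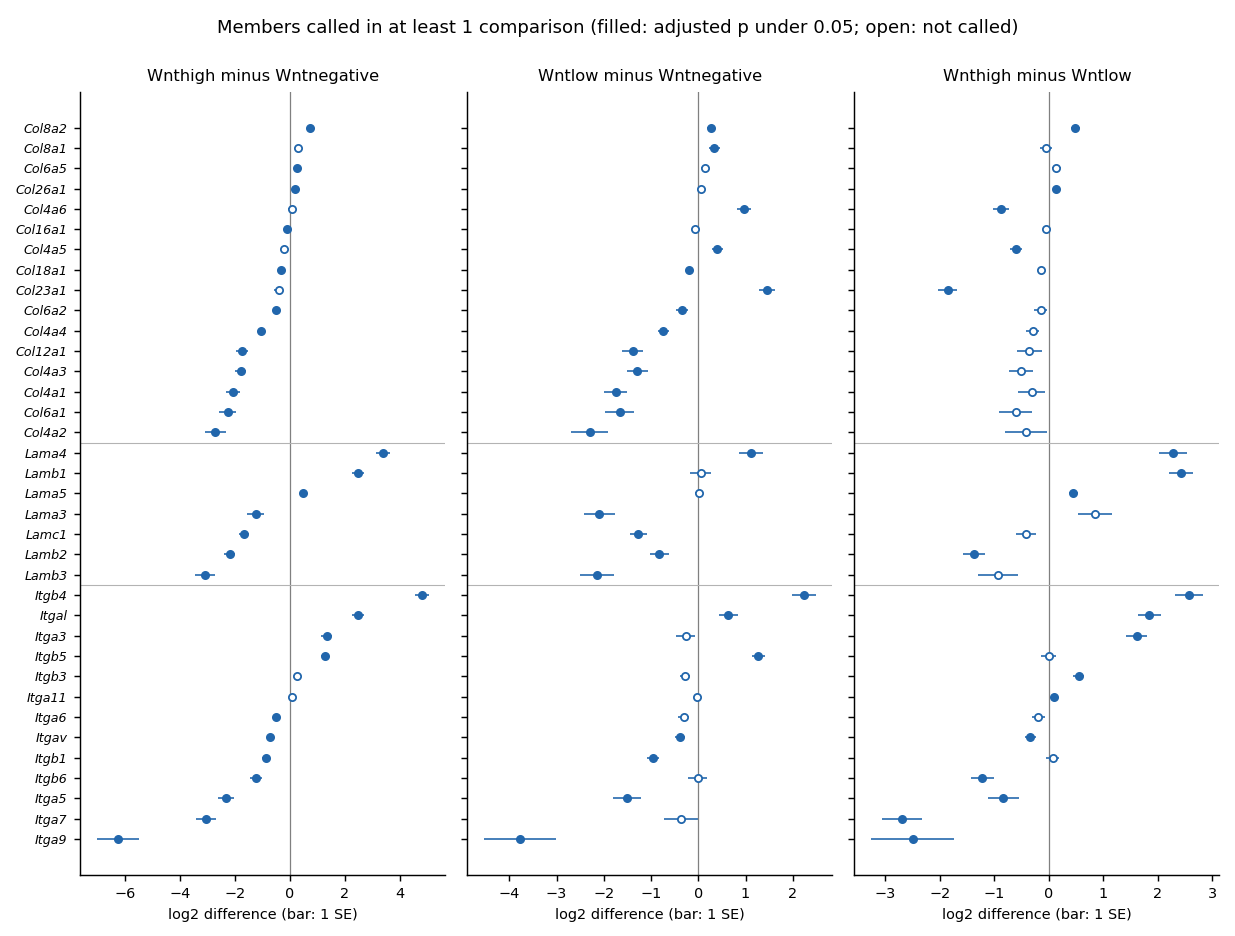
Log2 differences (x axis) of the 36 collagen, laminin and integrin genes called in at least 1 comparison (y axis, in 3 blocks), with bars of 1 SE; filled points have an adjusted p under 0.05 and open points do not. Itgb4 lies farthest to the right and Itga9 farthest to the left in both comparisons with Wntnegative cells, while Col23a1, Col4a5 and Col4a6 are filled and to the right of 0 in Wntlow minus Wntnegative, and filled and to the left of 0 in Wnthigh minus Wntlow.

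Type IV collagen is the sheet-forming collagen of basement membranes, and its 6 chains are encoded by 3 pairs of neighbouring genes. Col4a1 and Col4a2 give the common network, Col4a3 and Col4a4 chains combine with Col4a5 in specialised membranes such as that of the alveolus, and Col4a6 combines with Col4a5 in others. The 2 pairs on chromosomes 8 and 1 were lower in Wnthigh and in Wntlow than in Wntnegative cells, and the pair on the X chromosome was highest in Wntlow cells. The pairs are shown with the windows around their start sites because partners shared their pattern over the groups. In RefSeq's GRCm38.p6 models Col4a1 and Col4a2 overlap by 85 bases on opposite strands with start sites 21 bases apart, Col4a3 and Col4a4 overlap by 114 bases, and Col4a5 and Col4a6 lie 1274 bases apart with start sites separated by 1343 bases. Each window runs from 250 bases before to 50 bases after the start site and is written 5′ to 3′ on the gene's own strand. Capitals in the first pair mark the 78 bases that both windows share, read on opposite strands, at chr8:11312777-11313076 (minus strand) for Col4a1 and chr8:11312555-11312854 (plus strand) for Col4a2.
Col4a1: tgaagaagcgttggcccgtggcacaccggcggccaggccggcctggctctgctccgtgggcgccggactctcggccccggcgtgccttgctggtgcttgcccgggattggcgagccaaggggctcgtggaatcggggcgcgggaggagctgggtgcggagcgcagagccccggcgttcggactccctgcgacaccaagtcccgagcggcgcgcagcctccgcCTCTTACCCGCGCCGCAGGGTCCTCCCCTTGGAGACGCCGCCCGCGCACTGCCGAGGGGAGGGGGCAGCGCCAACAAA
Col4a2: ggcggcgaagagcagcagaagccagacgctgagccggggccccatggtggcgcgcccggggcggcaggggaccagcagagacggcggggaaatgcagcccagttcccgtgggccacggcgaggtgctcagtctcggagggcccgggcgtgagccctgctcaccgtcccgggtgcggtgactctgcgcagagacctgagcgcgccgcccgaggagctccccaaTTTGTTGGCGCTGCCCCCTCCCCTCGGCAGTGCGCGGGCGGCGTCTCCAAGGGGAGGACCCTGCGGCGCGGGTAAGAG
In the second pair, at chrX:141474027-141474326 (minus strand) for Col4a6 and chrX:141475169-141475468 (plus strand) for Col4a5, capitals mark matches to the GC box letters GGGCGG or the TEAD letters GGAATG, or to their reverse complements.
Col4a6: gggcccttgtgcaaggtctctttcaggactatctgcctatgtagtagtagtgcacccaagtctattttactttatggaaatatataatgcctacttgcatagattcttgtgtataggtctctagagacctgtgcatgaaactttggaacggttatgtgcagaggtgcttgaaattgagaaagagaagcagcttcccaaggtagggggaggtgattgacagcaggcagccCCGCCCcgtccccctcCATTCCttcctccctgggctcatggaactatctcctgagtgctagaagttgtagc
Col4a5: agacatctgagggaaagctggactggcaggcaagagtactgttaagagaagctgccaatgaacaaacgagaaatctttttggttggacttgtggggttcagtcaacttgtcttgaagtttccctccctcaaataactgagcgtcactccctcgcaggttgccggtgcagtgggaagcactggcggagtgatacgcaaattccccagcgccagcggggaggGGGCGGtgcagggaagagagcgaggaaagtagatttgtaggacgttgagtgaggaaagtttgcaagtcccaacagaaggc
The windows of the X-linked pair lie apart on the chromosome, whereas those on chromosome 8 overlap.

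Col4a2 was lowest in the groups with fluorescence. Its Wnthigh arrays of experiments 2, 4 and 5 were at 6.34, 7.62 and 6.52 and those of experiments 7, 8 and 9 at 5.07, 5.07 and 5.33. Wntlow arrays were at 6.70, 9.46 and 7.17 (experiments 3, 4 and 5) and at 4.63, 4.97 and 5.48, and Wntnegative arrays at 9.89, 9.84 and 9.65 and at 7.16, 7.83 and 7.85. Every Wntnegative array was above every Wnthigh and Wntlow array of its run, and the Wntlow array of experiment 4 came nearest to the Wntnegative arrays. The difference was −2.71 (SE 0.386, adjusted p = 2.37e-05) in Wnthigh and −2.30 (SE 0.386, adjusted p = 0.000341) in Wntlow against Wntnegative cells. Without the Wntlow array of experiment 4 the second value was −2.72, and in experiments 2 to 5 alone it was −2.02 and not called (adjusted p = 0.123). Wnthigh and Wntlow cells differed by −0.41 (SE 0.386, adjusted p = 0.534).

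Its partner Col4a1 had the same order of groups. The Wnthigh arrays lay at 6.08 to 7.07 and 4.75 to 5.01 in the 2 runs, the Wntlow arrays at 6.38 to 8.00 and 4.62 to 5.22, and the Wntnegative arrays at 8.80 to 8.94 and 6.30 to 6.74, with no overlap between Wntnegative and the others. The differences were −2.06 (SE 0.248, adjusted p = 3.95e-06) and −1.75 (SE 0.248, adjusted p = 9.11e-05). Col4a3, whose chain belongs to the alveolar and kidney network, was at 5.00 to 5.81 and 3.76 to 3.81 in Wnthigh, at 5.47 to 6.70 and 3.96 to 4.33 in Wntlow and at 7.15 to 7.90 and 4.98 to 5.38 in Wntnegative cells. It was lower, at −1.80 (adjusted p = 3.47e-06) in Wnthigh and at −1.29 (adjusted p = 0.000314) in Wntlow cells. Col4a4 was lower, at −1.04 (adjusted p = 1.84e-06) and −0.74 (adjusted p = 0.000207). For none of these 4 genes did Wnthigh and Wntlow cells differ at the threshold, with adjusted p of 0.0699 to 0.534, although Col4a3 and Col4a4 passed it without experiment 3 (0.0264 and 0.0461).

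The X-linked chains followed another order. Col4a6 was above background on all 6 Wntlow arrays, at 5.12 to 5.80 and 4.17 to 5.26, on 2 of 6 Wnthigh arrays and on no Wntnegative array. It was higher by 0.97 (SE 0.146, adjusted p = 0.000139) in Wntlow than in Wntnegative cells, a lower limit since the Wntnegative arrays give only a bound. Wnthigh cells were at −0.88 (adjusted p = 0.000185) against Wntlow cells, also a lower limit in size, since no second-run Wnthigh array was above background. Col4a5 was at 6.06 to 6.50 and 4.56 to 5.31 in Wntlow and at 5.39 to 5.90 and 4.17 to 4.33 in Wnthigh cells. It had the same value on all 3 Wntnegative arrays of a run, 5.902 in the first and 4.417 in the second. It was also at 5.902 on the Wnthigh array of experiment 4. It was higher by 0.40 (SE 0.112, adjusted p = 0.0131) in Wntlow than in Wntnegative cells, a call lost without experiment 5 (0.0612) or experiment 9 (0.054) and in either run alone (0.25 and 0.109). Against Wntlow cells, Wnthigh cells were at −0.61 (adjusted p = 0.000474). For both genes all Wntlow arrays lay above all arrays of the other groups in their run. The goblet markers had means per array of 11.77 to 12.40 and 12.38 to 13.44 in Wntlow, 7.16 to 10.88 and 7.91 to 8.13 in Wnthigh and 5.30 to 5.91 and 4.38 to 5.07 in Wntnegative cells, and the club markers were also highest in Wntlow cells. Of 5 mesothelial markers, 2 were called higher in Wntlow than in Wntnegative cells and 2 lower in Wnthigh than in Wntlow cells. The shares of all genes there were 12.3% and 16.4%. The part of these markers in the order of Col4a5 and Col4a6 was not tested.

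**Figure D2:**
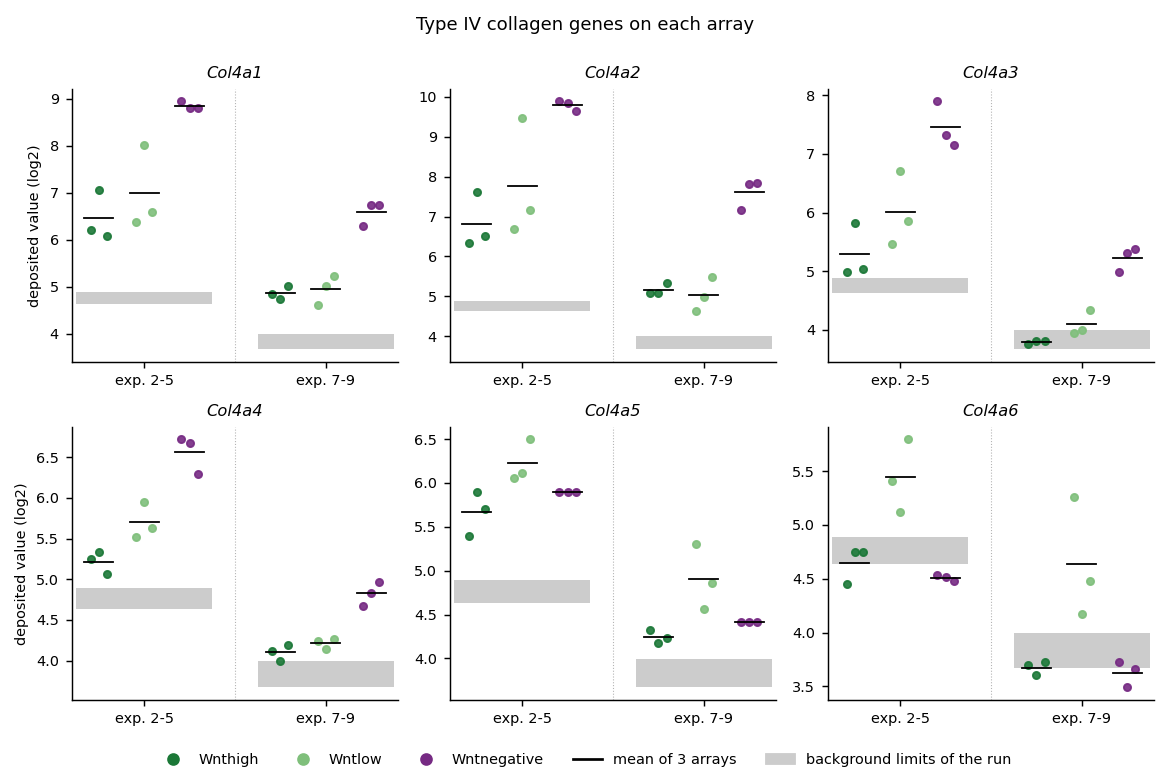
Deposited log2 values (y axis) of the 6 type IV collagen genes on each of the 18 arrays, in the first run (left of the dotted line) and the second run (right), with the mean of 3 arrays as a line and the range of the background limits in grey. Col4a1 to Col4a4 are highest on the Wntnegative arrays of both runs, and Col4a5 and Col4a6 on the Wntlow arrays.

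Other network-forming and surface collagens changed in fewer genes. Col6a1, a chain of the beaded filaments of type VI collagen, was at 5.01 to 6.16 and 3.89 to 3.96 in Wnthigh, at 5.66 to 7.78 and 3.87 to 4.44 in Wntlow and at 7.73 to 8.23 and 5.56 to 6.15 in Wntnegative cells. It was lower, at −2.27 (SE 0.310, adjusted p = 1.53e-05) in Wnthigh and at −1.66 (adjusted p = 0.000812) in Wntlow cells, with the Wntlow array of experiment 4, at 7.78, inside the Wntnegative range. Its partner Col6a2 was lower, at −0.49 (adjusted p = 0.00253) and −0.34 (adjusted p = 0.0398), both lower limits in size, with no second-run array of any group above background. The Wntlow call of Col6a2 was lost without experiments 3, 5, 7, 8 or 9 (adjusted p of 0.0568 to 0.144). It was also lost with each array centred on its median (0.0936), with quantile normalization (0.125) and in experiments 2 to 5 alone (0.326). Of the 5 type VI genes, Col6a3 was above background on no array, and Col6a5, named here after its values were seen, was called higher by 0.27 in Wnthigh against Wntnegative cells (adjusted p = 0.0179, and up to 0.0703 without 1 experiment).

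Col12a1, which binds to the surface of collagen fibrils, was at 7.09 to 7.74 and 4.97 to 5.39 in Wntnegative cells and at 5.02 to 5.88 and 3.62 to 3.77 in Wnthigh cells, whose second-run arrays were all at or below background. The difference of −1.75 (SE 0.224, adjusted p = 7.6e-06) is a lower limit in size, and Wntlow cells were at −1.39 (adjusted p = 0.000244). Of the 9 genes of its class, Col16a1, named here after its values were seen, was also called, at −0.12 in Wnthigh cells (adjusted p = 0.0184, and up to 0.0899 without 1 experiment). Col18a1, whose chain ends in the fragment endostatin and lies in basement membranes, was lower, at −0.33 (SE 0.058, adjusted p = 0.000219) in Wnthigh and at −0.19 (adjusted p = 0.0241) in Wntlow cells. The Wntlow call was lost with each array centred on its median (0.138), with quantile normalization (0.221) and without experiments 3, 5, 7 or 9 (0.0665 to 0.0928).

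Col23a1, a collagen that spans the cell membrane, was highest in Wntlow cells. Its Wntlow arrays were at 8.19, 7.95 and 8.80 in the first run and at 7.77, 7.08 and 7.50 in the second. Wnthigh arrays were at 6.28, 7.25 and 6.51 and at 5.36, 5.33 and 5.40, and Wntnegative arrays at 6.85, 7.14 and 6.99 and at 5.90, 5.92 and 5.76. The goblet and club markers were also highest in Wntlow cells, and the calls of mesothelial markers are given above. The part of these markers was not tested. Wntlow cells did not overlap with either group in either run and were higher by 1.45 (SE 0.171, adjusted p = 1.99e-05) than Wntnegative cells. Wnthigh cells were at −1.86 (adjusted p = 2.59e-06) against Wntlow cells and at −0.41 (adjusted p = 0.0724) against Wntnegative cells, where the call was gained without the Wnthigh array of experiment 4 (0.00529). Col8a2, a network-forming collagen named here after its values were seen, was called higher in all 3 comparisons, by 0.74, 0.26 and 0.48 in the order in which the comparisons were introduced. Of the other collagens, also named after their values were seen, Col26a1 was called higher in Wnthigh cells (0.19 against Wntnegative and 0.13 against Wntlow cells) and Col8a1 higher in Wntlow against Wntnegative cells (0.34). Col26a1 was above background on 5 Wnthigh, 1 Wntlow and 0 Wntnegative arrays and Col8a1 on 1, 2 and 0. Leaving out each experiment in turn ended the calls of Col8a2 and Col8a1 in Wntlow against Wntnegative cells (adjusted p up to 0.131 and 0.148) and of Col26a1 in Wnthigh against Wntlow cells (up to 0.144), which the replicate block also ended (0.0949).

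The fibrillar collagens, which make the cables of connective tissue and come mainly from fibroblasts, had no call. None of the 11 genes was called in any comparison by limma, none had an unadjusted p under 0.05, and a fit without the run term called 0 as well. Col1a2 lay at 4.46 to 4.72 in the first run and at 3.29 to 3.30 in the second, above background on no array. Col1a1 was above the limit on the 3 first-run arrays of each group, at 4.97 to 5.21, and on no second-run array, and Col3a1 was above it on 1 Wnthigh, 3 Wntlow and 0 Wntnegative arrays. Differences of the 11 genes ran from −0.10 to 0.04. The fibroblast markers had the low levels given above, with means per array of 4.39 to 5.20 in the first run and 3.17 to 3.49 in the second; Gpc3 was lower (−2.12) in Wnthigh cells and Dcn higher (1.11) in Wntlow cells against Wntnegative cells.

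Laminins are trimers of an alpha, a beta and a gamma chain, and the alpha chain carries the main site for integrins. The genes split in both directions. In Wnthigh against Wntnegative cells Lama4, Lamb1 and Lama5 were called higher and Lama3, Lamb2, Lamb3 and Lamc1 lower, 7 of the 10 genes, and none of these groups overlapped within a run. Of all genes 40.3% were called either way in this comparison, and 12.9% were higher and 17.8% lower without overlap in either run. In Wntlow against Wntnegative cells 1 gene (Lama4) was higher and 4 lower, and in Wnthigh against Wntlow cells 3 were higher and 1 (Lamb2) lower. The shares of all genes called either way there were 25.5% and 27.9%. Lama1, Lama2 and Lamc3 were above background on no array.

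Lama4 encodes an alpha chain best known from vessels and muscle. Its Wnthigh arrays were at 9.32, 8.13 and 8.83 in the first run and at 7.14, 7.22 and 7.07 in the second, its Wntlow arrays at 7.57, 5.63 and 6.55 and at 4.63, 4.82 and 4.82, and its Wntnegative arrays at 5.19, 5.02 and 5.11 and at 4.16, 3.79 and 4.07. The 3 groups did not overlap in either run. Lama4 was higher by 3.40 (SE 0.260, adjusted p = 3.02e-08) in Wnthigh and by 1.11 (SE 0.260, adjusted p = 0.0043) in Wntlow than in Wntnegative cells, and by 2.28 (adjusted p = 8.65e-06) in Wnthigh than in Wntlow cells. The markers of endothelium that were above background on all arrays were Kdr, at 1.92 in Wnthigh and 6.01 in Wntlow against Wntnegative cells, and Esam, at −4.26 and −2.92. The list's mean per array was 4.42 to 4.94 in Wnthigh, 5.12 to 5.33 in Wntlow and 4.91 to 4.94 in Wntnegative cells of the first run, and Pecam1, Cdh5, Cldn5 and Vwf were above background on no array.

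Lamb1, the beta chain of the most common laminins, was higher in Wnthigh cells than in both other groups. Its Wnthigh arrays lay at 7.97 to 8.31 and 6.74 to 7.08, its Wntlow arrays at 5.49 to 6.95 and 3.69 to 4.50 and its Wntnegative arrays at 5.76 to 5.99 and 4.11 to 4.33. Wnthigh arrays were above all others of their run, while Wntlow and Wntnegative arrays overlapped. The differences were 2.48 (SE 0.222, adjusted p = 1.57e-07) against Wntnegative and 2.42 (SE 0.222, adjusted p = 2.49e-06) against Wntlow cells, and Wntlow and Wntnegative cells differed by 0.06 (SE 0.222, adjusted p = 0.885). Lama5, the alpha chain of most adult epithelial basement membranes, was higher by 0.46 (SE 0.083, adjusted p = 0.000243) and 0.45 (adjusted p = 0.000504) in the same comparisons, with levels of 10.24 to 10.59 and 8.92 to 9.07 in Wnthigh cells and of 9.60 to 9.91 and 8.58 to 8.73 in Wntnegative cells.

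Lamb2, the beta chain of the synaptic, vascular and alveolar forms, had the opposite direction to Lamb1. Its Wnthigh arrays lay at 8.56 to 9.23 and 6.54 to 7.28, its Wntlow arrays at 9.45 to 10.69 and 8.37 to 8.58, and its Wntnegative arrays at 10.62 to 10.79 and 9.12 to 9.70. Wnthigh cells were lower, at −2.19 (SE 0.202, adjusted p = 2.1e-07) against Wntnegative and at −1.37 (adjusted p = 6.48e-05) against Wntlow cells, and Wntlow cells were lower, at −0.83 (adjusted p = 0.00594) against Wntnegative cells, with overlap in the first run. Lamc1, the gamma chain that most laminins share, was at 6.80 to 7.45 and 5.39 to 5.57 in Wnthigh and at 8.66 to 8.97 and 6.80 to 7.32 in Wntnegative cells. It was lower, at −1.68 (SE 0.185, adjusted p = 1.52e-06) in Wnthigh and at −1.27 (adjusted p = 0.000116) in Wntlow cells, and Wnthigh and Wntlow cells differed by −0.42 (adjusted p = 0.118).

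Lama3 and Lamb3 are chains of the laminin of hemidesmosomes and anchoring filaments. Lamb3 was at 5.56, 6.84 and 5.62 and at 4.05, 4.27 and 4.35 on Wnthigh arrays, at 6.43, 8.88 and 6.95 and at 4.21, 4.84 and 5.00 on Wntlow arrays, and at 9.24, 8.76 and 9.00 and at 7.70, 7.36 and 7.15 on Wntnegative arrays. Wnthigh cells lay below Wntnegative cells on every array, at −3.09 (SE 0.364, adjusted p = 3.22e-06), and Wntlow cells at −2.15 (adjusted p = 0.000366), with the Wntlow array of experiment 4 inside the Wntnegative range. Wnthigh and Wntlow cells differed by −0.94 (adjusted p = 0.0698). The difference was −1.09 without the Wnthigh array of experiment 4 (0.0424) and shrank to −0.71 without all arrays of experiment 4 (0.00814).

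Lama3 had its lowest values in Wntlow cells in place of Wnthigh cells. The Wnthigh arrays lay at 7.89 to 8.05 and 6.62 to 6.91, the Wntlow arrays at 7.01 to 8.84 and 4.51 to 6.12, and the Wntnegative arrays at 9.12 to 9.87 and 7.61 to 8.00. Wntlow cells were lower, at −2.09 (SE 0.319, adjusted p = 0.000159) and Wnthigh cells at −1.24 (SE 0.319, adjusted p = 0.0046), a call that neither run gave alone (0.0509 and 0.085). Wnthigh cells were at 0.85 (adjusted p = 0.0601) against Wntlow cells, and at 1.16 (adjusted p = 0.00105) without the Wntlow array of experiment 4. The type II and type I markers were lowest in Wnthigh cells, as were Lamb2, Lamb3 and Lamc1 on average, and unlike Lama3. The type II markers had means per array of 10.91 to 15.35 and 9.36 to 13.11 in Wnthigh, 14.70 to 16.71 and 12.46 to 15.76 in Wntlow and 16.97 to 17.05 and 17.39 to 17.71 in Wntnegative cells, and all 9 were above background on all 18 arrays. Their part in the collagen and laminin differences was not tested.

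**Figure D3:**
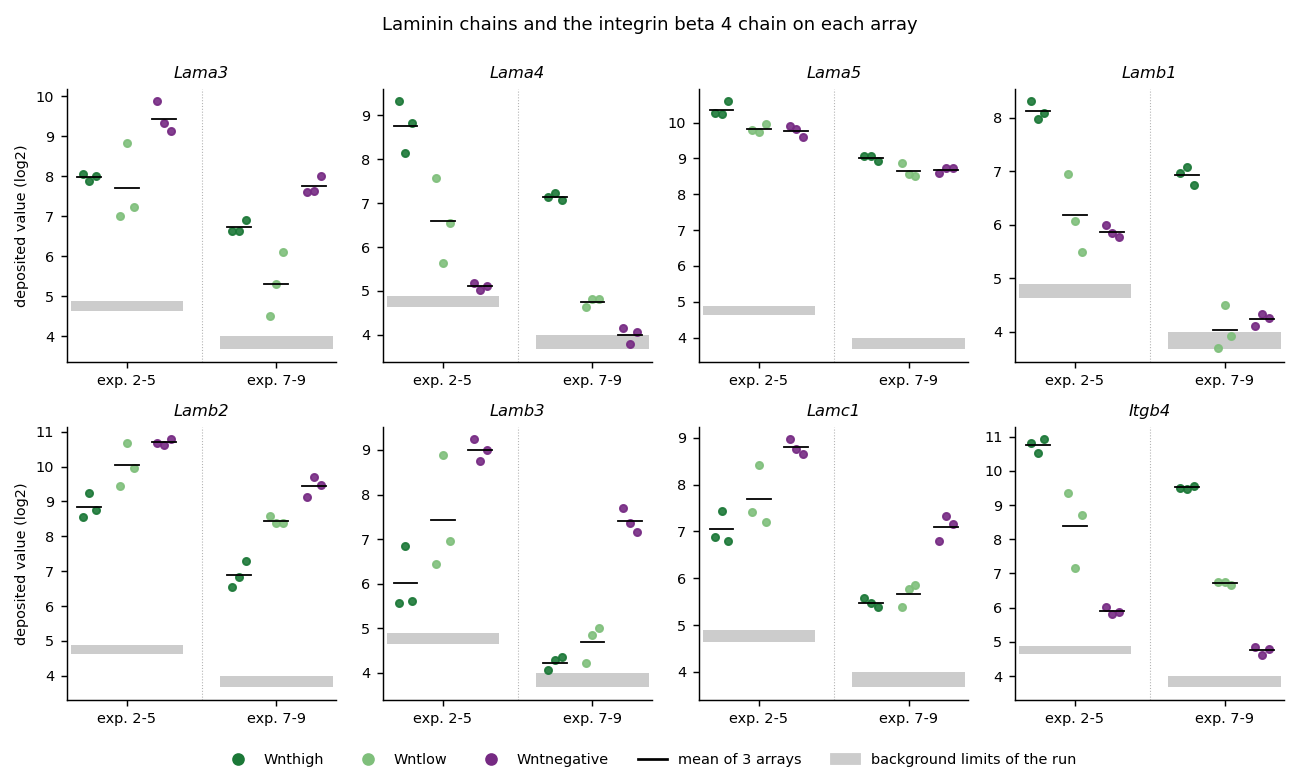
Deposited log2 values (y axis) of the 7 laminin genes above background and of Itgb4 on each of the 18 arrays, in the first run (left of the dotted line) and the second run (right), with the mean of 3 arrays as a line and the range of the background limits in grey. Lama4, Lamb1 and Itgb4 are highest on Wnthigh arrays, Lamb2, Lamb3 and Lamc1 are highest on average on Wntnegative arrays, and Lama3 is lowest on second-run Wntlow arrays.

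The nidogens, which link the laminin network to type IV collagen, were not above background. Nid1 lay at 4.09 to 4.18 in the first run and 3.20 to 3.38 in the second, and Nid2 at 3.66 to 3.67 and 2.86 to 2.86, above background on no array. Neither was called by limma in any comparison or by the fit without a run term, and none had an unadjusted p under 0.05. At this signal a difference between groups was not detectable.

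Among the integrin chains that bind laminin, beta 4 had the largest positive difference of all 79 genes. Itgb4, the partner of alpha 6 in hemidesmosomes, was at 10.81, 10.52 and 10.92 on the first-run and at 9.51, 9.47 and 9.56 on the second-run Wnthigh arrays. The Wntlow arrays were at 9.35, 7.15 and 8.70 and at 6.74, 6.74 and 6.67, and the Wntnegative arrays at 6.01, 5.80 and 5.86 and at 4.86, 4.62 and 4.79. The 3 groups were fully apart in both runs, in the order of their fluorescence. Itgb4 was higher by 4.81 (SE 0.252, adjusted p = 3.81e-09) in Wnthigh and by 2.24 (SE 0.252, adjusted p = 1.31e-05) in Wntlow than in Wntnegative cells, and by 2.57 (adjusted p = 3.39e-06) in Wnthigh than in Wntlow cells. Within the runs the first difference was 4.86 and 4.76. The Wntlow array with the lowest value, at 7.15, was that of experiment 4, which also had the lowest ciliated markers among the Wntlow arrays of its run.

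Itga6, the partner chain of beta 4, did not follow it. The Wnthigh arrays were at 7.36 to 7.72 and 5.86 to 6.05, the Wntlow arrays at 7.48 to 8.08 and 6.08 to 6.08, and the Wntnegative arrays at 8.00 to 8.62 and 6.23 to 6.27. Itga6 was lower, at −0.49 (SE 0.117, adjusted p = 0.00258) in Wnthigh against Wntnegative cells. Wntlow cells were at −0.30 (adjusted p = 0.0703), and with the experiment as a replicate block the same difference had an adjusted p of 0.016, and of 0.035 without the Wntlow array of experiment 4.

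Itga3, the alpha chain that pairs with beta 1 on laminin, was higher in Wnthigh cells, at 10.74, 10.64 and 10.71 and at 9.03, 9.15 and 9.03. Wntlow arrays were at 10.06, 9.37 and 9.45 and at 7.05, 6.85 and 6.88, and Wntnegative arrays at 9.51, 9.07 and 9.23 and at 7.92, 7.75 and 7.81. Wnthigh arrays did not overlap with the other groups, and the differences were 1.34 (SE 0.199, adjusted p = 3.59e-05) against Wntnegative and 1.61 (SE 0.199, adjusted p = 1.52e-05) against Wntlow cells. Wntlow and Wntnegative cells differed by 0.36 (adjusted p = 0.297) in a fit of the first run alone and by −0.90 (adjusted p = 0.000305) in one of the second alone. Over both runs they differed by −0.27 (adjusted p = 0.37). Their difference between the runs had an unadjusted p of 4.27e-05 and an adjusted p of 0.184, and of 0.0101 without experiment 3. None of the 79 genes was called for a difference between the runs in any comparison by limma; 2, 2 and 6 of them had an unadjusted p under 0.05, with 6.44%, 5.83% and 7.24% of all genes.

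Itga7, an alpha chain best known from muscle, was lower in Wnthigh cells than in both other groups. Its Wnthigh arrays were at 5.13, 7.44 and 5.87 and at 5.01, 4.93 and 5.33. Within each run they lay below all Wntlow arrays (8.15, 9.14 and 8.79, and 8.67, 7.37 and 7.75) and all Wntnegative arrays (8.87, 9.46 and 8.67, and 9.30, 7.79 and 7.99). Wnthigh cells were lower, at −3.06 (SE 0.361, adjusted p = 3.18e-06) against Wntnegative and at −2.70 (SE 0.361, adjusted p = 2.86e-05) against Wntlow cells. Wntlow and Wntnegative cells overlapped, with a difference of −0.37 (SE 0.361, adjusted p = 0.513). Of 6 smooth muscle markers, 1 was called higher and 1 lower in Wnthigh against Wntnegative cells, both under 0.2 in size. Of all genes 40.3% were called either way there. Of these 6 markers 2 (Myh11 and Des) were above background on no array and the others on at least 1 array. The number above it on all 6 arrays of any group was 0.

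Integrin chains of other ligands included the lowest difference of the set. Itga9 encodes an alpha chain that binds tenascin, osteopontin and other matrix proteins. Its Wntnegative arrays were at 14.09, 13.84 and 13.54 and at 12.69, 13.26 and 12.94. Wntlow arrays were at 9.77, 13.15 and 10.56 and at 6.16, 8.45 and 9.59, and Wnthigh arrays at 6.33, 10.70 and 8.00 and at 5.26, 5.74 and 6.66. Every Wntnegative array was above all others of its run, while Wnthigh and Wntlow arrays overlapped and spread widely. The difference was −6.28 (SE 0.766, adjusted p = 4.63e-06) in Wnthigh and −3.78 (SE 0.766, adjusted p = 0.00156) in Wntlow against Wntnegative cells, with −5.48 and −7.08 in the runs for the former and −2.66 (adjusted p = 0.226) and −4.90 for the latter. Wnthigh and Wntlow cells differed by −2.50 (adjusted p = 0.0211), a call lost in each run alone (0.197 and 0.122), without the Wntlow array of experiment 4 (0.0517) and without experiments 2, 5, 8 or 9 (0.0567 to 0.0725). The part of the type II markers, which were also highest in Wntnegative cells, was not tested.

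Sequence letters were searched in the windows that RefSeq gives around start sites. They were read on both strands in the windows of 56 of the 79 genes, 62 windows in all, since some genes have several. The other 23 genes had no window and were not searched, among them Itgb4, Lama4, Itgal, Lama3, Lamc1, Itga6 and Itga7. A window can belong to an internal start site, as that of Itga9 does. The TCF/Lef letters ATCAAAG, of the kind of site that drives the reporter, were in the window of 1 gene (Col9a2) and in 3.73% of all 32851 windows. The AP-1 letters TGANTCA were in 4 genes (Col6a1, Itga3, Itga9 and Itgax) and 7.81% of all windows, and the TEAD letters in 9 genes and 14.7% of all windows. The GC box letters were in 34 of the 62 windows (54.8%), those of 32 genes, and in 35.7% of all windows. The closing GG of the GC box can also be the opening GG of the TEAD letters, so these matches can share bases. A match is a description of letters, and its absence says only that they are not in this window.

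Itga5, the fibronectin receptor chain, was lower in both fluorescent groups. The Wnthigh arrays lay at 5.14 to 6.09 and 3.92 to 4.04, the Wntlow arrays at 5.93 to 7.97 and 4.20 to 4.54 and the Wntnegative arrays at 7.75 to 8.35 and 5.87 to 6.10. The differences from Wntnegative cells were −2.34 (SE 0.290, adjusted p = 5.41e-06) and −1.51 (SE 0.290, adjusted p = 0.00101), and the Wntlow array inside the Wntnegative range was again that of experiment 4. Without that array the Wntlow difference was −1.82, nearer to that of Wnthigh cells. Wnthigh cells were lower, at −0.83 (adjusted p = 0.0417) against Wntlow cells, a call lost without experiments 2, 5, 7, 8 or 9 (0.0658 to 0.103). Fn1, which encodes its ligand fibronectin, was above background on 1 Wntnegative array of 6 and at 1.93 (adjusted p = 4.73e-06) in Wntlow against Wntnegative cells, a lower limit.

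Itgav pairs with beta 3, 5, 6 and 8 chains, and the chains moved apart from each other. Itgav was lower, at −0.74 (SE 0.104, adjusted p = 2.2e-05) in Wnthigh and at −0.40 (adjusted p = 0.00967) in Wntlow than in Wntnegative cells. The second call was lost without experiment 8 (0.0524) and in each run alone (0.136 and 0.148), and so was that of −0.34 (adjusted p = 0.0207) for Wnthigh against Wntlow cells without experiment 8 or 9 (0.0521 and 0.0618). Itgb6, whose pair with alpha v activates latent TGF-beta in epithelium, was at 7.15 to 8.01 and 5.65 to 5.87 in Wnthigh, at 8.40 to 9.06 and 6.78 to 7.17 in Wntlow and at 8.31 to 8.59 and 6.79 to 7.99 in Wntnegative cells. It was lower in Wnthigh cells at −1.24 (SE 0.208, adjusted p = 0.000124) and −1.22 (adjusted p = 0.000237) against Wntnegative and Wntlow cells, which differed by −0.02 (SE 0.208, adjusted p = 0.969).

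Itgb5 went the other way. The Wnthigh arrays lay at 7.62 to 8.02 and 6.44 to 6.52, the Wntlow arrays at 7.25 to 7.71 and 6.44 to 6.98, and the Wntnegative arrays at 6.14 to 6.45 and 5.13 to 5.61. Both fluorescent groups were higher by 1.27 (SE 0.138) than Wntnegative cells, with adjusted p of 1.36e-06 and 9.7e-06, with no overlap in either run. Itgb8 was at 3.70 to 3.82 and 3.01 to 3.06, above background on no array. Itgb3, named here after its values were seen, was called in Wnthigh against Wntlow cells by 0.55 (adjusted p = 0.000828).

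Itgb1, the common partner of most alpha chains, was at 11.48 to 11.78 and 9.93 to 10.17 in Wnthigh, at 11.48 to 12.09 and 9.68 to 9.95 in Wntlow and at 12.32 to 12.46 and 10.88 to 11.17 in Wntnegative cells. It was lower, at −0.88 (SE 0.122, adjusted p = 1.75e-05) and −0.96 (SE 0.122, adjusted p = 3.94e-05), and Wnthigh and Wntlow cells differed by 0.07 (adjusted p = 0.77). Of the collagen-binding alpha chains, Itga2 was above background on no array, with a call in Wnthigh against Wntlow cells that appeared without the Wnthigh array of experiment 4 (0.0375), and Itga10 was above it on first-run arrays only, and Itga1 was not measured. Itga11, named after its values were seen and also above background on no array, was called at 0.10 in Wnthigh against Wntlow cells (adjusted p = 0.0472), a call kept in 1 of 7 fits that leave out an experiment (up to 0.175) and lost with the replicate block (0.126) and without the Wntlow array of experiment 4 (0.0506). Itga8, the nephronectin receptor chain, and Itga4, which pairs with beta 1 or beta 7, were above background on no array. Itga2b and Itgb7, above background on all 18 arrays, were not called in any comparison.

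**Figure D4:**
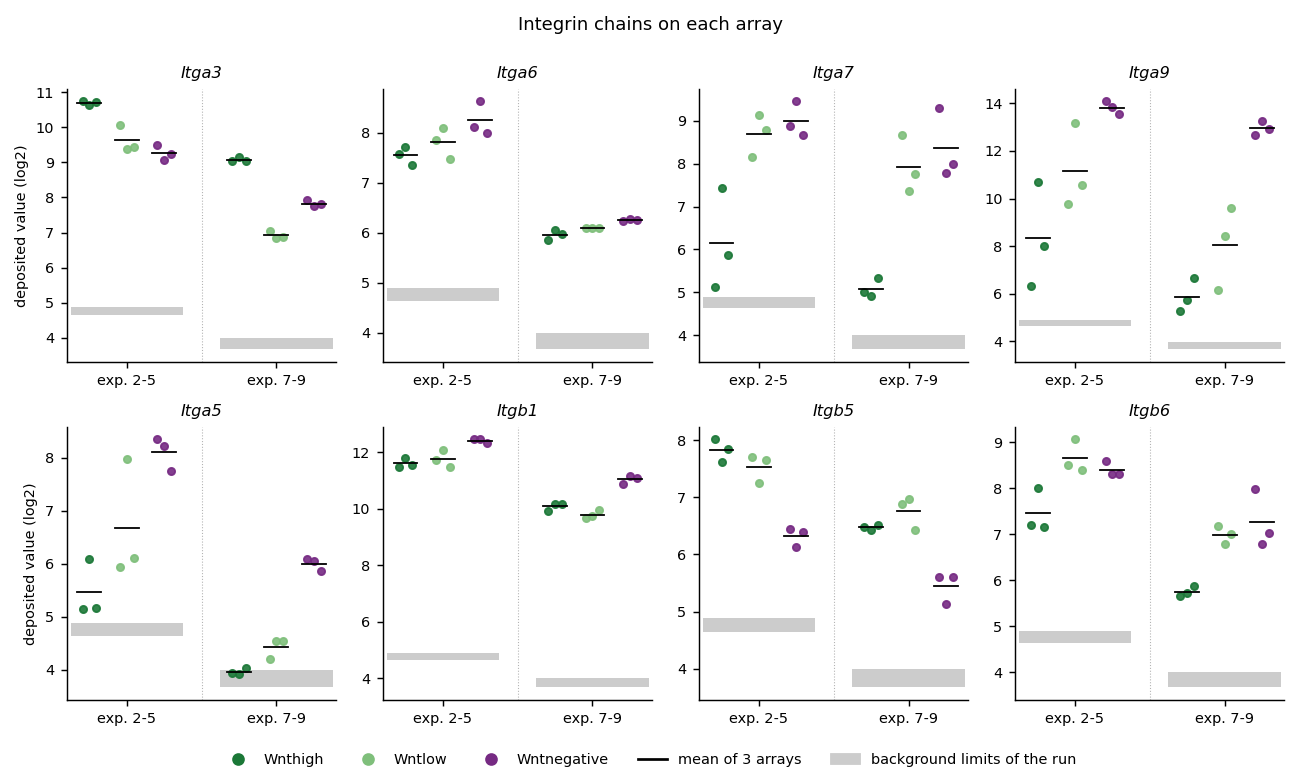
Deposited log2 values (y axis) of 8 integrin genes on each of the 18 arrays, in the first run (left of the dotted line) and the second run (right), with the mean of 3 arrays as a line and the range of the background limits in grey. Itga9 and Itga5 are highest on average on Wntnegative arrays, Itga3 on Wnthigh arrays, Itga7 and Itgb6 are lowest on Wnthigh arrays, and Itgb5 is lowest on Wntnegative arrays.

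Of the 5 integrin alpha chains listed as those of leukocytes, 1 was above background. Itgal, the alpha chain of LFA-1, was at 8.07, 7.12 and 7.88 and at 6.91, 6.75 and 6.39 on Wnthigh arrays, at 6.76, 5.38 and 6.21 and at 4.35, 4.73 and 4.61 on Wntlow arrays and at 5.34, 5.29 and 5.47 and at 4.02, 3.94 and 4.17 on Wntnegative arrays. Wnthigh arrays were above all others of their run. The differences were 2.48 (SE 0.206, adjusted p = 7.2e-08) in Wnthigh and 0.64 (SE 0.206, adjusted p = 0.0317) in Wntlow against Wntnegative cells. The second was lost without experiments 3, 5, 8 or 9 (0.0715 to 0.11) and in each run alone (0.262 and 0.0655). Itgb2, which encodes the beta chain with which alpha L forms its receptor, was above background on no array, at 4.13 to 4.32 and 3.36 to 3.40, as were Itgam, Itgax, Itgad and Itgae. Of the 9 leukocyte markers 7 were above background on no array, with list means of 4.26 to 4.40 and 3.32 to 3.42 in all groups. In Wnthigh against Wntnegative cells 1 marker was called higher and 1 lower, with differences of the list from −0.235 to 0.272. Against Wntlow cells 1 was called higher, with differences from −0.118 to 0.296. Of all genes 40.3% and 27.9% were called either way in these comparisons. The part of leukocyte markers in the difference of Itgal was not tested.

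**Figure D5:**
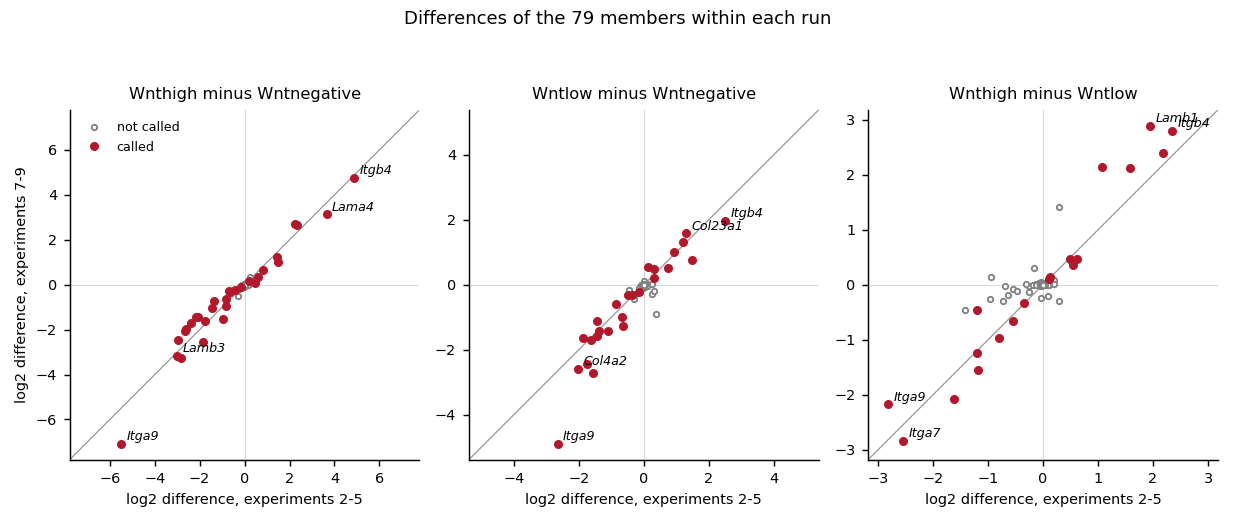
Log2 differences of the 79 genes in the second run (experiments 7 to 9, y axis) against those in the first run (experiments 2 to 5, x axis) in each comparison, with the line of equal values; red points were called in the fit of both runs. Itgb4 and Itga9 hold the ends in both comparisons with Wntnegative cells, and Itga9 lies off the line with −2.66 and −4.90 in Wntlow minus Wntnegative.

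Genes that act with these chains were read from lists of their own. Of 22 measured genes for collagen synthesis and cross-linking, 3 were higher and 9 lower in Wnthigh against Wntnegative cells, 1 and 4 in Wntlow against Wntnegative cells, and 3 and 9 in Wnthigh against Wntlow cells. Of all genes 15.7% and 24.6%, 12.3% and 13.2%, and 11.4% and 16.4% were called in these comparisons, or 40.3%, 25.5% and 27.9% either way. Bmp1, the protease that trims procollagen and laminin chains, was lower, at −5.01 (SE 0.504, adjusted p = 5.7e-07) in Wnthigh and at −3.44 (adjusted p = 0.000119) in Wntlow cells. The proline hydroxylase gene P4ha1 was lower, at −2.51 (adjusted p = 1.69e-06) and −2.01 (adjusted p = 7.37e-05). P3h2, a prolyl 3-hydroxylase of type IV collagen, was lower, at −1.94 (adjusted p = 5.5e-06) in Wnthigh cells, while Wntlow cells were at 0.46 (adjusted p = 0.195) against Wntnegative cells. P4ha2 was at −1.21 (adjusted p = 5.08e-07) and −0.15 (adjusted p = 0.402). Mia3, which helps to export large collagens, was higher by 0.59 (adjusted p = 0.00148) in Wntlow cells.

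Of 21 other basement membrane genes, 4 were higher and 10 lower in Wnthigh against Wntnegative cells, 1 and 8 in Wntlow against Wntnegative cells, and 3 and 5 in Wnthigh against Wntlow cells, where 40.3%, 25.5% and 27.9% of all genes were called either way. Hspg2, the gene of perlecan, was lower, at −3.71 (adjusted p = 1.52e-05) and −2.82 (adjusted p = 0.000583) against Wntnegative cells. Larger differences were those of Egfl6, at −7.28 (adjusted p = 6.04e-05) and −4.53 (adjusted p = 0.00705), and of Tinag, at −6.88 (adjusted p = 1.11e-05) and −4.21 (adjusted p = 0.00253), both genes of basement membrane proteins. Sparc, a collagen chaperone, was at −4.26 (adjusted p = 1.12e-05) and −2.46 (adjusted p = 0.00378), and Tinagl1 at −4.05 (adjusted p = 4.9e-07) and −1.75 (adjusted p = 0.0039). Agrn, the gene of agrin, was lower, at −2.05 (adjusted p = 1.15e-06) in Wnthigh cells but at 0.06 (adjusted p = 0.887) in Wntlow cells.

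Of 16 measured soluble and matrix ligands of integrins, 1 was higher and 5 lower in Wnthigh against Wntnegative cells, 2 and 4 in Wntlow against Wntnegative cells, and 1 and 7 in Wnthigh against Wntlow cells. The shares of all genes called either way were 40.3%, 25.5% and 27.9%. Tgfb3, whose latent form is a ligand of alpha v integrins, was lower, at −6.02 (adjusted p = 1.29e-06) and −3.18 (adjusted p = 0.00172), and Tgfb1 at −2.44 (adjusted p = 1.81e-05) and −1.72 (adjusted p = 0.00124). Icam1, the ligand of LFA-1, was lower, at −5.24 (adjusted p = 6.82e-07) and −2.36 (adjusted p = 0.00358).

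Of 19 matrix receptors and membrane partners outside the integrins, 4 were higher and 10 lower in Wnthigh against Wntnegative cells, 5 and 8 in Wntlow against Wntnegative cells, and 4 and 7 in Wnthigh against Wntlow cells, beside 40.3%, 25.5% and 27.9% of all genes either way. Ddr1, a receptor kinase for collagen, was higher by 3.31 (SE 0.229, adjusted p = 1.21e-08) and 1.70 (adjusted p = 6.14e-05), and Adgrg6, an adhesion receptor with type IV collagen among its ligands, by 3.27 (adjusted p = 2.69e-08) and 2.12 (adjusted p = 1.8e-05). Bcam, a receptor for laminin alpha 5, was lower, at −2.93 (adjusted p = 2.67e-06) and −1.76 (adjusted p = 0.00108), and the tetraspanin gene Cd81 at −4.36 (adjusted p = 1.98e-06) and −2.31 (adjusted p = 0.00227). Cd44, a hyaluronan receptor, was lower, at −2.60 (adjusted p = 1.28e-06) in Wnthigh cells and at −0.45 (adjusted p = 0.282) in Wntlow cells.

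Of 22 measured adaptors and anchors inside the cell, 5 were higher and 11 lower in Wnthigh against Wntnegative cells, 7 and 10 in Wntlow against Wntnegative cells, and 5 and 10 in Wnthigh against Wntlow cells, beside 40.3%, 25.5% and 27.9% of all genes either way. Fermt1, the epithelial kindlin that activates integrins, was above background on 1 of 6 Wntnegative arrays and higher by 5.72 (SE 0.419, adjusted p = 1.96e-08) in Wnthigh and 2.34 (adjusted p = 0.000561) in Wntlow cells, which are lower limits. Tns3 was higher by 2.58 (adjusted p = 2.48e-08) and 1.87 (adjusted p = 6.41e-06), while its relative Tns1 was lower, at −5.35 (adjusted p = 6.81e-07) and −2.96 (adjusted p = 0.00073). Vcl, the gene of vinculin, was lower, at −2.26 (adjusted p = 9.75e-08) and −0.87 (adjusted p = 0.00294).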

How the data were processed

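Per the submitters' processing notes, the authors deposited log2 values made by RMA. A software version was not given in the sources used here. Medians and decimals show 2 runs normalized apart, a split the labels do not name, each with 3 arrays per group. Of 65956 probe sets that are not controls, 30604 have 1 gene symbol, 2146 several and 33206 none. Values reach 19.93, so differences are on the deposited scale and not ratios of RNA. The precision is limited by the number of arrays.

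Differences were fitted with limma 3.58.1 (R 4.3.3) over 18 arrays with group and run as terms, with Benjamini-Hochberg adjustment of the p-values across 30142 genes. A difference is a lower limit in size where all 3 arrays of the lower group in a run are at or below background. The p-values measure the spread between pooled samples. The members and lists, and so the genes named, were chosen with earlier results of these data known. Named were a fixed set of chains and, in each comparison, up to 8 members with the highest and 8 with the lowest difference among those called with a size of at least 1, 1 sign in both runs and the higher group above background on all 6 arrays; of each other list, up to 3 genes per comparison with the largest called difference. Arrays of 1 experiment share its number in the labels. Of 16 pairs, 8 correlated above 0.1 after group and run (range −0.147 to 0.41), and 16 after group alone, so the experiment was tried as a replicate block. In simulated data of 30142 genes, true differences of 1 were called in 92%, 91% and 93% of cases in the comparisons Wnthigh against Wntnegative, Wntlow against Wntnegative and Wnthigh against Wntlow. The 100 changed genes of that size were drawn at random from all genes, with independent noise of each gene's own spread. The rates are therefore not those of members with a wide spread, such as Itga9 (SE 0.766). Alternatives left out the run term, each experiment, each run or low genes, and centred or quantile-normalized the arrays; leaving out the Wntlow or Wnthigh array of experiment 4 was chosen after seeing the data. Sequences are RefSeq's for GRCm38.p6, where 56 of the 79 genes matched.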

Additional observations from a re-analysis of the deposited data

Results flagged for a closer look

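Of 78 groups of 6 arrays examined among the named genes, 13 held 1 array far from the others once each run was centred; chance gives about 1 in 20 groups. The value given is the gap to the nearest array divided by the range of the group, with a critical value of 0.625. The Wntlow array of experiment 4 was the highest of its group for Col18a1 (0.795), Itga5 (0.727), Lamb3 (0.7), Col4a2 (0.645), Col6a1 (0.642) and Lamc1 (0.631). The Wnthigh array of experiment 4 was the highest for Col23a1 (0.766) and Itgb6 (0.739) and the lowest for Itgb4 (0.728), where it was at 10.52. The other arrays were the Wntnegative array of experiment 4 for Itga6 (0.813, the highest), that of experiment 7 for Itgb6 (0.752, the highest) and Col4a1 (0.638, the lowest), and the Wnthigh array of experiment 5 for Lama5 (0.683, the highest). The range of the group was at least 1 in 6 of the 13 cases.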

How the results depend on the processing

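No named gene had a sign opposite to that of the main fit with a call in either fit. Between the runs, Itga3 in Wntlow against Wntnegative cells was at 0.361 without a call in the first alone. It was called at −0.897 in the second alone (adjusted p = 0.000305). Of 111 gene comparisons (37 genes, 3 comparisons), 61 kept their side of the threshold in every setting, and of the 64 called, 56 were kept without each experiment in turn. The 8 of these lost without at least 1 experiment were Col18a1, Col4a5, Col6a2, Itgal and Itgav in Wntlow against Wntnegative cells and Itga5, Itga9 and Itgav in Wnthigh against Wntlow cells. Calls of Col8a2, Col8a1, Col26a1, Col16a1, Col6a5 and Itga11, outside the 37, were also lost in this way. Without the run term, the members called higher and lower were 5 and 8 in Wnthigh against Wntnegative cells, 3 and 1 in Wntlow against Wntnegative cells, and 4 and 2 in Wnthigh against Wntlow cells, since the offset between the runs then enters the spread. Centring or quantile normalization gave 17 higher in Wnthigh against Wntnegative cells, where the median of all genes moved from −0.0465 to 0.0196 and 0.0088. Experiments 2 to 5 alone (9 arrays) gave 4 higher and 3 lower in Wntlow against Wntnegative cells, and 6 higher and 4 lower in Wnthigh against Wntlow cells. Lost there in Wntlow against Wntnegative cells were calls of Col4a2 (adjusted p = 0.123), Col4a3 (0.0587), Col6a1 (0.131), Col12a1 (0.0775) and Col18a1 (0.3). Those of Lama3 (0.0621), Lama4 (0.11), Lamb2 (0.234), Lamb3 (0.177), Lamc1 (0.0805) and Itga5 (0.155) were lost as well. Experiments 7 to 9 alone gave 5 higher in Wntlow against Wntnegative cells. The count of named genes called for a difference between runs in Wntlow against Wntnegative cells was 0 to 1 as each experiment was left out (Itga3, without experiment 3). The replicate block, with the experiment as a factor, changed 1 call among these 37 genes, Itga6 in Wntlow against Wntnegative cells (adjusted p = 0.016), and among the other members ended those of Col26a1 (0.0949) and Itga11 (0.126) in Wnthigh against Wntlow cells. Without the Wnthigh array of experiment 4, Col23a1, Itga2 and Lamb3 gained a call. Without the Wntlow array of experiment 4, Itga6 and Lama3 gained a call and Itga9 and Itga11 lost one. Signal over background limits what can be seen for the 33 genes above background on no array.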
